A study of Homo sapiens with 10 samples.

Results

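The 100 genes described here had their highest levels in both kinds of STAMBP knockout cells that received a construct, above wild-type and plain knockout cells. Gene expression had been measured by RNA sequencing of 10 libraries of H1-derived neural progenitor cells (NPCs), H1 being an established line of human embryonic stem cells. The genes were chosen from the measured levels, in counts scaled to a library total of 1000000 (CPM). Among the rows with a gene symbol and a mean of 5 CPM or more in each of the groups with a construct, 12268 of 60898, each gene got a ratio. The numerator is the smaller of those group means plus 0.5, and the denominator is the largest of the WT, KO1 and KO2 means plus 0.5. The 100 highest ratios, 0.815% of these rows, were taken, leaving out TTR and the RSPO genes (4 rows in that range). They ran from 8.56 (AMBN) to 2.30 (GUCY1A1), with a median of 2.69. The levels in the groups with a construct against all others are therefore a description here and carry no test.

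Each of the 5 groups has 2 libraries. WT is labelled with the genotype WT, KO1 and KO2 are both labelled STAMBP-KO, and KO+STAMBP and KO+CFLAR are labelled STAMBP-KO with STAMBP or CFLAR added. All 5 groups share the H1 line and the NPC label. STAMBP is a deubiquitinase that acts on endosomal sorting, and CFLAR restrains caspase-8 activation. Which knockout line the constructs went into, what drives them and whether paired libraries stem from separate cultures is not in the labels. The p-values therefore cover the spread between these libraries alone, which may be technical. In bulk RNA, fewer cells of a type and less RNA per cell cannot be told apart.

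The library totals were 16495116 to 20832700 counts, so that a count of 0 in a library allows up to 0.144 to 0.182 CPM (3 counts; counting error only). STAMBP was at 45.2 and 49 CPM in WT, 15.6 to 18.1 in the 4 knockout libraries and 43.1 and 48.3 in KO+STAMBP. The libraries labelled KO+CFLAR had 45.3 and 42.4 CPM of STAMBP and 33.1 and 31.2 CPM of CFLAR, against CFLAR levels of 35.6 and 31.5 in WT and 226 to 241 in the knockout. These libraries go against their label, with STAMBP near the WT level rather than the knockout one and no excess of CFLAR over WT, and every statement on them rests on the label. KO+STAMBP had 34.3 and 34.2 CPM of CFLAR. Both genes were thus at close levels in the groups with a construct, which does not show that these groups carry different constructs. Of the defining markers of neural progenitors, PAX6 was at 188 to 209 CPM in all 10 libraries. SOX1 was at 149 and 158 CPM in WT, 0.361 to 0.613 in the knockout, 59.7 and 60.2 in KO+STAMBP and 66.2 and 64.1 in those labelled KO+CFLAR.

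In the developing forebrain, progenitors of the cortical wall make excitatory projection neurons, a step driven by the basic helix-loop-helix factors NEUROG2, NEUROD2 and NEUROD6. At the medial edge of the cortex lies the cortical hem, which secretes WNT and BMP ligands and is a source of Cajal-Retzius neurons, the early neurons of the cortical surface. Beside it the same neuroepithelium forms the choroid plexus, which makes cerebrospinal fluid. The eye also grows out of the forebrain, and its pigment epithelium makes melanin with the enzymes TYR, TYRP1 and DCT. Of the 100 genes, 22 stand on lists of markers and pathways of these and other tissues, and 78 stand on none.

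Promoter sequence was examined because several transcription factors lie among these genes. Whether they act on others of the 100 was not tested. RefSeq start sites (GRCh38.p14) were matched by symbol for 78 of the 100, each with the 250 bases before and the 50 after the start. The 3 shown are those of NEUROD6 and NEUROD2, which were nearly absent in the knockout, and of TYRP1, which differed between the groups with a construct. Only the 250 bases before the start are printed, 5′ to 3′ on the strand of the gene. They lie wholly or partly inside the longer spans that GENCODE gives for these genes. Capitals mark the E-box CAGATG, a kind of site that neurogenic factors bind, in NEUROD6 (chr7:31340727-31340976, minus strand) and NEUROD2 (chr17:39607921-39608170, minus strand). In TYRP1 (chr9:12693135-12693384, plus strand) they mark CATGTG, or CACATG where it lies on the other strand, the core of the M-box bound by MITF family factors.
NEUROD6: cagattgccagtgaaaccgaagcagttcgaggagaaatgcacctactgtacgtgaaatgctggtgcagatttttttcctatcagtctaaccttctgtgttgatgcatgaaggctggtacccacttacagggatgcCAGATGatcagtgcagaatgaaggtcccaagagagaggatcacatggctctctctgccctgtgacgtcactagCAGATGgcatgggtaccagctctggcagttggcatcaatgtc
NEUROD2: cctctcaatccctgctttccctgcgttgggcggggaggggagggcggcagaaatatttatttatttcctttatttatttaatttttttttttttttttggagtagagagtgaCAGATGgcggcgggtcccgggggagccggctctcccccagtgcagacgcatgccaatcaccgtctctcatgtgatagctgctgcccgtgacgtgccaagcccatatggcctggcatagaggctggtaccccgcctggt
TYRP1: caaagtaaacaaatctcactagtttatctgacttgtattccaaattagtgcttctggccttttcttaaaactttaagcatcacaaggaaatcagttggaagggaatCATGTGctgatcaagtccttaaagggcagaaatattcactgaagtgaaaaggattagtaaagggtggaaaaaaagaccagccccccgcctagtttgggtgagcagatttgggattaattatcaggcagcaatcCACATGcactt

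Across the 78 windows, searched on both strands, CAGATG was in 8 (10.3%), against 14.8% of the 27305 genes with a window. CAGCTG was in 9 (11.5% against 17.7%) and CTTTGAA, the TCF/LEF motif of WNT signalling, in 2 (2.56% against 4.53%). GTTGCC, part of the RFX site, was in 7 (8.97% against 12.2%), TTGGCA, part of the NFI site, in 14 (17.9% against 12.7%) and TAATTA, a homeodomain motif, in 6 (7.69% against 4.98%). CATGTG, added after the genes were known, was in 8 (10.3% against 11.2%). None of these motifs contains another, though their matches can overlap. A match is a description of letters in this window and no more.

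The levels of the 100 genes are shown against WT in the heat map of all libraries. In KO+STAMBP the genes stood at 2.32 to 13.5 times WT (median 3.11), and in the libraries labelled KO+CFLAR at 2.34 to 19.3 times WT (median 2.94). In all 100, each of the 4 libraries with a construct was above each of the 6 others, as were 19.5% of the 21063 genes tested, and the rule fixes this for its members to a large extent. Summed over the 100 genes, WT had 2948 and 2922 CPM, the knockout libraries 405 to 421 CPM, KO+STAMBP 8720 and 8620.1 CPM, and the libraries labelled KO+CFLAR 8578 and 8383 CPM. WT was the highest of the remaining group means in 92 genes and a knockout line in 8.

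**Figure D1:**
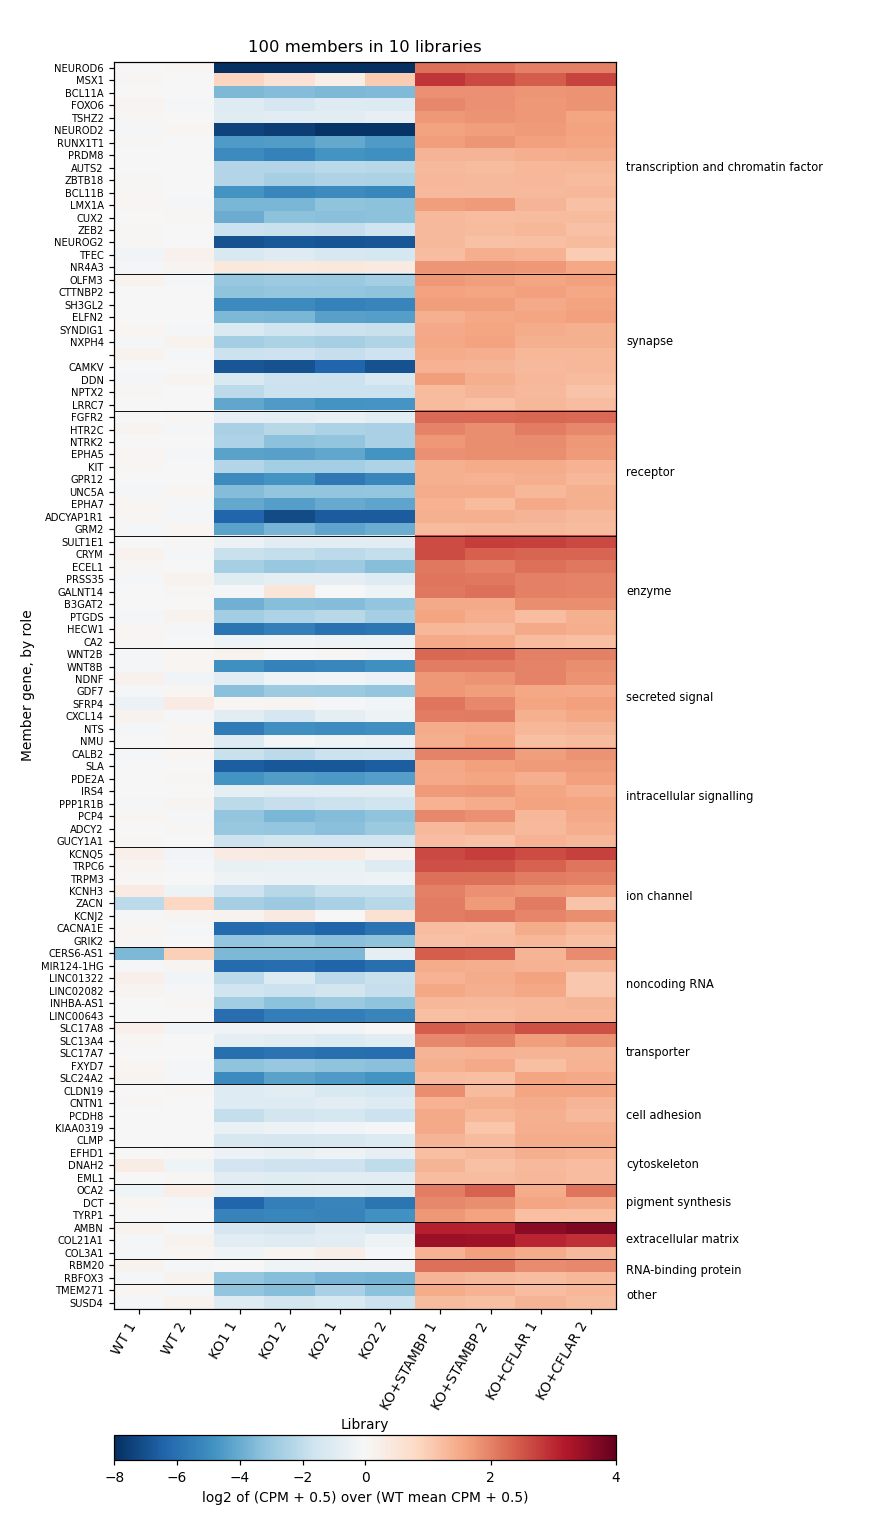
Level of each of the 100 genes (rows, grouped by role, 1 of them without a label) in each of the 10 libraries (columns), as log2 of the CPM plus 0.5 over the WT mean plus 0.5; red is above WT and blue below, on a scale that runs from -8 to 4. The 4 columns with a construct are above WT throughout, while the 4 knockout columns run from far below WT (NEUROD6) to above it (MSX1).

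Whether these genes differed between the knockout and WT libraries was tested in KO vs WT. The mean of KO1 and KO2 was set against WT in edgeR's quasi-likelihood model of all genes, with a call at an adjusted p (Benjamini-Hochberg) under 0.05. The rule uses the WT and knockout levels in its denominator and leaves out genes whose knockout level comes near that of the groups with a construct. It does not set the sign of a member's change, but it limits how far a member can rise, so nothing is read from the members' counts against those of all genes. Of the 100 genes, 86 were lower in the knockout (39.4% of all tested genes were) and 4 were higher (36.8% of all tested genes), while 10 were not called. In all 90 were called, and 76.2% of all tested genes. The counts by role or list given below stand beside these shares, and roles were assigned after the genes were seen. The median log2 change was -2.96, against -0.04 over all tested genes. The limit on rises lowers the members' median as well, so nothing is read from this difference. In mean CPM the knockout stood under 1% of WT in 13 genes, under 10% in 47, between 10% and 50% in 32 and above 50% in 21, with a median of 12.5%. In 46 genes the knockout mean was under 1 CPM. With the libraries labelled KO+CFLAR left out of the fit, 86 genes were lower and 3 higher. Markers of mesenchyme other than these genes summed to 188 CPM in each WT library and 2020.0 to 2113 in the knockout, and their part in the result was not tested. Scaled by library size alone, the median of all tested genes in KO vs WT moved to -0.22, and 90 of the 100 genes were lower and 2 higher. Percentages of WT are of CPM, which rests on library size alone, whereas log2 changes use the scaling of the fit (TMM). The latter places the knockout higher against WT, so the percentage and the log2 change of a gene differ.

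The transcription and chromatin factors, 17 genes, include the neurogenic factors NEUROG2, NEUROD2 and NEUROD6. Of the 17, 15 fell in the knockout and 2 rose, where 86 of all 100 genes fell. NEUROD6 (ENSG00000164600, chromosome 7, 31337461 to 31340894, GRCh38), a factor of young excitatory neurons, was at 152 and 159 CPM in WT, 0.0511 and 0 in KO1, 0 and 0 in KO2, 726 and 701 in KO+STAMBP and 628 and 627 in those labelled KO+CFLAR. The knockout had 1 count in all, so that the ratio of WT to knockout was 11190 with an exact 95% interval of 2008 to 442046, and the fitted fall had an adjusted p of 1.99e-17 by edgeR. All 4 libraries with a construct lay far above both WT libraries in a gene with 0 counts in 3 of the 4 knockout libraries. NEUROD2 (ENSG00000171532, chromosome 17, 39603536 to 39609777), its close relative, was at 119.8 and 134 CPM in WT, 0.256 and 0.181 in KO1, 0.0606 and 0.0527 in KO2, 389 and 405 in KO+STAMBP and 412 and 392 in those labelled KO+CFLAR. NEUROD2 fell in KO vs WT (log2 -9.88 ± 0.13 (SE), adjusted p = 3.43e-17). NEUROG2, the factor that starts neurogenesis in cortical progenitors, was likewise lowest in the knockout and highest with a construct, with 82.6 and 79.1 CPM in WT, 0.153 and 0.241 in KO1, 0.182 and 0.211 in KO2, 200.1 and 184 in KO+STAMBP and 187 and 196 in those labelled KO+CFLAR. NEUROG2 fell in KO vs WT (log2 -8.47 ± 0.12 (SE), adjusted p = 8.34e-17). Its knockout level was 0.243% of WT and its level in KO+STAMBP 2.38 times WT.

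BCL11A, a zinc finger factor of projection neurons, was at 90.3 and 92.2 CPM in WT, 7.16 and 7.65 in KO1, 7.03 and 7.6 in KO2, 328 and 325 in KO+STAMBP and 312 and 320.3 in those labelled KO+CFLAR. The knockout kept 8.07% of the WT level (log2 -3.46 ± 0.05 (SE), adjusted p = 1.35e-16), far more than it kept of the NEUROD genes. BCL11B, which shapes the corticospinal neurons of deep layers, was at 98.7 and 93.8 CPM in WT, 2.05 to 2.96 in the knockout, 236 and 235 in KO+STAMBP and 235 and 240.3 in those labelled KO+CFLAR (log2 -5.17 ± 0.07 (SE), adjusted p = 1.03e-16). CUX2, a factor of upper-layer neurons, was at 9.88 and 10.8 CPM in WT, 0.204 to 0.633 in the knockout, 26 and 24.7 in KO+STAMBP and 25.8 and 25.6 in those labelled KO+CFLAR (log2 -4.24 ± 0.19 (SE), adjusted p = 3.19e-11). In KO+STAMBP, BCL11B and CUX2 stood at 2.44 and 2.46 times WT. PRDM8, a factor of projection neurons, stood at 1.8% of WT in the knockout and at 2.59 and 2.8 times WT in the groups with a construct, and RUNX1T1, a corepressor, at 2.9%, 3.33 and 3.12. ZBTB18, AUTS2 and ZEB2, which act in cortical development, kept more in the knockout, with 17.7%, 20.5% and 29.7% of WT, and FOXO6 and TSHZ2 kept 43.3% and 52.4%.

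**Figure D2:**
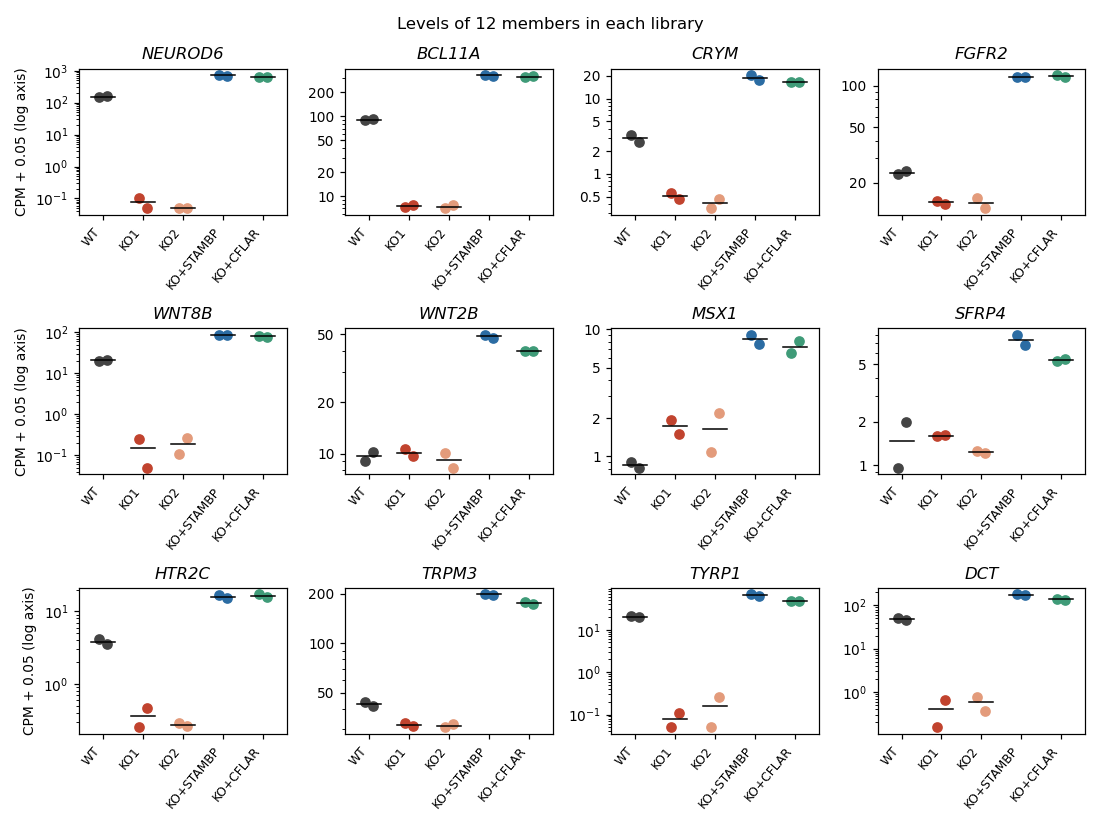
Level of 12 of the genes in each library, as CPM plus 0.05 on a log axis, by group; points are libraries and bars are group means of 2 libraries. In every panel the 4 points with a construct lie above the 6 others, and the knockout points lie far below WT for NEUROD6, WNT8B, TYRP1 and DCT but near or above it for WNT2B, MSX1 and SFRP4.

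Of 5 genes of the cortical hem, 3 fell in the knockout, 1 rose and 1 was not called. The members are the ligands WNT8B, WNT2B and GDF7 and the homeodomain factors LMX1A and MSX1. WNT8B (ENSG00000075290, chromosome 10, 100463041 to 100483744), a ligand of the hem, was at 19.6 and 21.5 CPM in WT, 0.204 and 0 in KO1, 0.0606 and 0.211 in KO2, 87.2 and 86.9 in KO+STAMBP and 82.3 and 76.5 in those labelled KO+CFLAR. WNT8B fell in KO vs WT (log2 -7.12 ± 0.22 (SE), adjusted p = 4.67e-13). GDF7, a BMP ligand of the dorsal midline, was at 12.9 and 14.6 CPM in WT, 0.92 and 1.39 in KO1, 1.33 and 1.11 in KO2, 47.3 and 45 in KO+STAMBP and 41.3 and 39.99 in those labelled KO+CFLAR. GDF7 fell in KO vs WT (log2 -3.37 ± 0.14 (SE), adjusted p = 9.85e-12). LMX1A, which specifies the hem and the roof plate, was at 6.91 and 6.1 CPM in WT, 0.0511 and 0.0602 in KO1, 0.242 and 0.211 in KO2, 21.9 and 22.1 in KO+STAMBP and 17.3 and 15.3 in those labelled KO+CFLAR. LMX1A fell in KO vs WT (log2 -5.59 ± 0.24 (SE), adjusted p = 1.87e-11). These 3 genes fell to 0.578%, 8.63% and 2.17% of WT in the knockout.

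WNT2B (ENSG00000134245, chromosome 1, 112466541 to 112530165), another WNT ligand of the hem, was by contrast at 8.97 and 10.2 CPM in WT, 8.23 to 10.5 in the knockout, 49.6 and 47.8 in KO+STAMBP and 40.02 and 40.1 in those labelled KO+CFLAR. Knockout and WT overlapped, the test did not call the gene (log2 0.17 ± 0.10 (SE), adjusted p = 0.15), and the groups with a construct were 5.07 and 4.18 times WT. MSX1, a target of BMP signalling, was higher in the knockout than in WT, with 0.849 and 0.762 CPM in WT, 1.89 and 1.45 in KO1, 1.03 and 2.16 in KO2, 9.03 and 7.69 in KO+STAMBP and 6.5 and 8.02 in those labelled KO+CFLAR. MSX1 rose in KO vs WT (log2 1.21 ± 0.33 (SE), adjusted p = 0.00393). All 4 knockout libraries of MSX1 lay above both WT libraries and below all 4 with a construct. MSX1 had means of 0.805, 1.63, 8.36 and 7.26 CPM for WT, knockout, KO+STAMBP and the libraries labelled KO+CFLAR.

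Of the other secreted proteins, SFRP4, which binds WNT ligands, was at 0.909 and 1.93 CPM in WT, 1.53 and 1.57 in KO1, 1.21 and 1.16 in KO2, 7.98 and 6.73 in KO+STAMBP and 5.27 and 5.42 in those labelled KO+CFLAR. Its WT libraries differed by more than 2-fold, and it was not called in KO vs WT (log2 0.08 ± 0.28 (SE), adjusted p = 0.808). NDNF, a secreted protein of Cajal-Retzius neurons, was at 2.42 and 1.73 CPM in WT, 0.92 to 1.7 in the knockout, 7.98 and 8.43 in KO+STAMBP and 9.6 and 8.54 in those labelled KO+CFLAR and was not called either (adjusted p = 0.122). CALB2, the calcium-binding protein calretinin that marks the same neurons, was at 24.6 and 26.9 CPM in WT, 5.54 to 7.65 in the knockout, 104 and 103 in KO+STAMBP and 83.3 and 90.9 in those labelled KO+CFLAR and fell in the knockout (log2 -1.71 ± 0.09 (SE), adjusted p = 2.55e-10). CXCL14, a chemokine, was at 2.55 and 2.03 CPM in WT, 0.602 to 1.64 in the knockout, 11.1 and 11.2 in KO+STAMBP and 7.04 and 7.73 in those labelled KO+CFLAR (log2 -0.88 ± 0.23 (SE), adjusted p = 0.00338). The neuropeptide gene NTS (neurotensin) fell from 52.1 and 57.7 CPM in WT to 0.665 to 1.32 in the knockout (log2 -5.45 ± 0.11 (SE), adjusted p = 3.29e-15) and stood at 153 and 157 CPM in KO+STAMBP and 139.9 and 142 in those labelled KO+CFLAR. NMU (neuromedin U) was at 4.3 and 4.72 CPM in WT, 1.94 to 4.04 in the knockout, 13.3 and 14.5 in KO+STAMBP and 11 and 11.5 in those labelled KO+CFLAR, with no call in the knockout (adjusted p = 0.14).

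All 10 receptor genes fell in the knockout, as did 86 of the 100 genes and 39.4% of all tested genes, but to very different levels. FGFR2, a receptor of fibroblast growth factors (ENSG00000066468, chromosome 10, 121478334 to 121598458), was at 23 and 24.1 CPM in WT, 14.7 and 14.1 in KO1, 15.5 and 13.1 in KO2, 116 and 116 in KO+STAMBP and 119 and 116 in those labelled KO+CFLAR. FGFR2 fell in KO vs WT (log2 -0.55 ± 0.07 (SE), adjusted p = 5.33e-06). In CPM its knockout level was 60.8% of WT, a larger fall than in the scaling of the fit, and the 4 libraries with a construct lay within 116 to 119 CPM. HTR2C, the serotonin receptor of the choroid plexus, was at 4.12 and 3.45 CPM in WT, 0.204 and 0.422 in KO1, 0.242 and 0.211 in KO2, 16.5 and 15.2 in KO+STAMBP and 17.1 and 15.7 in those labelled KO+CFLAR. HTR2C fell in KO vs WT (log2 -3.64 ± 0.25 (SE), adjusted p = 4.96e-09). NTRK2, the receptor of brain-derived neurotrophic factor, was at 17.7 and 18 CPM in WT, 1.39 to 2.76 in the knockout, 60.04 and 65.9 in KO+STAMBP and 67.9 and 60.8 in those labelled KO+CFLAR (log2 -2.92 ± 0.16 (SE), adjusted p = 4.48e-10). EPHA5 and EPHA7, ephrin receptors that guide axons, stood at 3.83% and 4.83% of WT in the knockout and at 3.61 and 2.52 times WT in KO+STAMBP. ADCYAP1R1, the receptor of the peptide PACAP, was at 84.1 and 76.5 CPM in WT, 0.0602 to 0.511 in the knockout, 218 and 215 in KO+STAMBP and 206 and 198 in those labelled KO+CFLAR (log2 -7.82 ± 0.14 (SE), adjusted p = 9.14e-16). KIT, the receptor of stem cell factor, kept 16.1% of WT in the knockout, the netrin receptor UNC5A 8.72%, the glutamate receptor GRM2 2.8% and the orphan receptor GPR12 1.26%.

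Among the ion channels, 6 of 8 fell in the knockout and 2 rose. KCNQ5, a potassium channel that dampens firing, was at 2.06 and 1.37 CPM in WT, 2.3 and 2.35 in KO1, 2.42 and 2.0 in KO2, 13.2 and 14.6 in KO+STAMBP and 13 and 14.3 in those labelled KO+CFLAR, 8.1 and 7.95 times WT in the groups with a construct. TRPC6, a calcium-permeable channel, was at 1.15 and 0.914 CPM in WT, 0.511 and 0.542 in KO1, 0.545 and 0.264 in KO2, 8.59 and 8.55 in KO+STAMBP and 7.43 and 6.29 in those labelled KO+CFLAR. TRPC6 fell in KO vs WT (log2 -0.98 ± 0.32 (SE), adjusted p = 0.0114). TRPM3, a cation channel of the choroid plexus (ENSG00000083067, chromosome 9, 70529063 to 71446904), was at 44 and 41.7 CPM in WT, 32.7 and 31.3 in KO1, 30.8 and 32.3 in KO2, 197 and 197 in KO+STAMBP and 177 and 174 in those labelled KO+CFLAR. TRPM3 fell in the knockout, to 74.2% of WT in CPM and by less in the scaling of the fit (log2 -0.25 ± 0.05 (SE), adjusted p = 0.000285). With a construct TRPM3 stood at 4.61 and 4.1 times WT. The neuronal calcium channel CACNA1E and the kainate receptor GRIK2, at the lower end of the ratios, stood at 0.964% and 9.34% of WT in the knockout. ZACN, a zinc-activated channel, was at 0.364 and 6.1 CPM in WT, 0.102 and 0 in KO1, 0.121 and 0.316 in KO2, 14.9 and 11.6 in KO+STAMBP and 15.3 and 7.73 in those labelled KO+CFLAR, so its WT level differed more than 2-fold between libraries. Its row overlaps SRP68 and EXOC7 on the opposite strand, and reads of these cannot be told apart here.

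The vesicular glutamate transporters SLC17A7 and SLC17A8, which load synaptic vesicles, were both among the 5 transporters. SLC17A7 was at 51.2 and 53 CPM in WT, 0.307 and 0.361 in KO1, 0.303 and 0.264 in KO2, 134 and 137 in KO+STAMBP and 135 and 133 in those labelled KO+CFLAR. SLC17A7 fell in KO vs WT (log2 -7.21 ± 0.10 (SE), adjusted p = 9.38e-17). SLC17A8 was at 0.788 and 0.457 CPM in WT, 0.409 and 0.422 in KO1, 0.485 and 0.58 in KO2, 5.56 and 4.96 in KO+STAMBP and 6.01 and 6.1 in those labelled KO+CFLAR and was not called in KO vs WT (log2 -0.20 ± 0.34 (SE), adjusted p = 0.669), with 8.45 and 9.72 times WT in the groups with a construct. SLC13A4, a sulfate transporter of the choroid plexus, was at 6.18 and 5.69 CPM in WT, 2.55 to 3.37 in the knockout, 23.8 and 25.6 in KO+STAMBP and 19.9 and 21.9 in those labelled KO+CFLAR (log2 -0.80 ± 0.13 (SE), adjusted p = 7.08e-05). FXYD7 and SLC24A2, a regulator of the sodium pump and a sodium-calcium exchanger of neurons, fell to 1.25% and 1.08% of WT.

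The highest folds of KO+STAMBP over WT belonged to SULT1E1, AMBN and COL21A1, an enzyme and 2 matrix genes that were low in WT. AMBN (ENSG00000178522, chromosome 4, 70592256 to 70607288), known as an enamel matrix protein, was at 1.03 and 0.762 CPM in WT, 0.0511 and 0 in KO1, 0.182 and 0.0527 in KO2, 11.6 and 11.3 in KO+STAMBP and 16.6 and 18 in those labelled KO+CFLAR. COL21A1 (ENSG00000124749, chromosome 6, 56056590 to 56394094), a fibril-associated collagen, was at 1.88 and 2.44 CPM in WT, 0.92 and 0.783 in KO1, 0.97 and 1.53 in KO2, 28 and 27.4 in KO+STAMBP and 21.3 and 19.7 in those labelled KO+CFLAR. In KO vs WT both fell (AMBN log2 -3.64 ± 0.50 (SE), adjusted p = 1.04e-05; COL21A1 log2 -0.88 ± 0.22 (SE), adjusted p = 0.00213), from means of 0.896 and 2.16 CPM in WT. SULT1E1 (ENSG00000109193, chromosome 4, 69841212 to 69860152), which adds sulfate to estrogens, was at 0.364 and 0.406 CPM in WT, 0.153 and 0 in KO1, 0 and 0 in KO2, 4.84 and 5.53 in KO+STAMBP and 5.41 and 4.99 in those labelled KO+CFLAR, with 3 counts in the knockout in all, which gives a ratio of WT to knockout of 9.24 (exact 95% interval 2.58 to 50.1). COL3A1, a fibrillar collagen of mesenchyme, was at 4.24 and 4.88 CPM in WT, 3.48 and 4.94 in KO1, 5.58 and 4.17 in KO2, 12.9 and 15.4 in KO+STAMBP and 13.7 and 11.9 in those labelled KO+CFLAR, with no call in KO vs WT (log2 0.15 ± 0.18 (SE), adjusted p = 0.472).

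CRYM (ENSG00000103316, chromosome 16, 21238874 to 21303083), a thyroid hormone binding protein of deep cortical neurons, was at 3.21 and 2.59 CPM in WT, 0.511 and 0.422 in KO1, 0.303 and 0.422 in KO2, 20.3 and 17.5 in KO+STAMBP and 16.4 and 16.8 in those labelled KO+CFLAR. CRYM fell in KO vs WT (log2 -2.60 ± 0.23 (SE), adjusted p = 1.14e-07). The annotation has CRYM-AS1 on the opposite strand of it. ECEL1, an endopeptidase of neurons, was at 7.94 and 7.32 CPM in WT, 0.264 to 0.767 in the knockout, 34.6 and 32.1 in KO+STAMBP and 36.8 and 34.5 in those labelled KO+CFLAR (log2 -3.68 ± 0.20 (SE), adjusted p = 2.54e-10), and PRSS35, a secreted protease-like protein, at 2.79 and 3.45 CPM in WT, 1.27 to 1.7 in the knockout, 15.6 and 15 in KO+STAMBP and 14.1 and 14 in those labelled KO+CFLAR (log2 -0.92 ± 0.18 (SE), adjusted p = 0.000379). PTGDS, the prostaglandin D synthase of choroid plexus and meninges, was at 2.85 and 3.66 CPM in WT, 0.0511 to 0.303 in the knockout, 10.7 and 9.69 in KO+STAMBP and 8.42 and 9.6 in those labelled KO+CFLAR (log2 -4.23 ± 0.33 (SE), adjusted p = 2.53e-08). GALNT14, a glycosyltransferase, was at 1.58 and 1.73 CPM in WT, 1.16 to 2.53 in the knockout, 8.7 and 9.4 in KO+STAMBP and 8.22 and 8.02 in those labelled KO+CFLAR, and its knockout libraries overlapped WT (adjusted p = 0.506). RBM20, a splicing regulator known from heart muscle, was at 2.73 and 2.18 CPM in WT, 1.87 to 2.45 in the knockout, 13.1 and 13.1 in KO+STAMBP and 10.4 and 10.8 in those labelled KO+CFLAR, again with overlap and no call (adjusted p = 0.742).

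Melanin synthesis contributed 3 genes, all lower in the knockout. DCT (ENSG00000080166, chromosome 13, 94436808 to 94479682), the dopachrome tautomerase, was at 49.95 and 44.9 CPM in WT, 0.102 and 0.602 in KO1, 0.727 and 0.316 in KO2, 179.5 and 175 in KO+STAMBP and 143 and 137 in those labelled KO+CFLAR. DCT fell in KO vs WT (log2 -6.65 ± 0.16 (SE), adjusted p = 3.35e-14). TYRP1 (ENSG00000107165, chromosome 9, 12685439 to 12710290), a melanosome enzyme, was at 20.5 and 19.9 CPM in WT, 0 and 0.0602 in KO1, 0 and 0.211 in KO2, 68 and 62.9 in KO+STAMBP and 47 and 47.5 in those labelled KO+CFLAR. TYRP1 fell in KO vs WT (log2 -8.14 ± 0.25 (SE), adjusted p = 3.72e-13). OCA2, a melanosome transporter, was at 0.727 and 1.37 CPM in WT, 0.46 and 0.301 in KO1, 0.364 and 0.211 in KO2, 5.89 and 7.47 in KO+STAMBP and 3.84 and 6.38 in those labelled KO+CFLAR. OCA2 fell in KO vs WT (log2 -1.50 ± 0.43 (SE), adjusted p = 0.0058). TFEC, a relative of MITF, was at 1.88 and 2.59 CPM in WT, 0.527 to 0.843 in the knockout, 6.0 and 6.95 in KO+STAMBP and 6.74 and 5.09 in those labelled KO+CFLAR (log2 -1.61 ± 0.27 (SE), adjusted p = 7.84e-05). TYRP1 and DCT were both under 1% of WT in the knockout and 2.34 to 3.74 times WT in the groups with a construct.

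All 11 synapse genes fell in the knockout, where 86 of the 100 genes and 39.4% of all tested genes did. CAMKV, a kinase-like protein of synapses, was at 91 and 89.8 CPM in WT, 0.211 to 0.606 in the knockout, 239 and 232 in KO+STAMBP and 222 and 227 in those labelled KO+CFLAR (log2 -7.89 ± 0.11 (SE), adjusted p = 5.29e-17), and SH3GL2, an endophilin of synaptic vesicle recycling, at 33.1 and 34.2 CPM in WT, 0.303 to 0.511 in the knockout, 109 and 107 in KO+STAMBP and 97 and 104 in those labelled KO+CFLAR (log2 -6.16 ± 0.12 (SE), adjusted p = 1.92e-15). NPTX2, a secreted pentraxin of excitatory synapses, kept 23.5% of WT in the knockout. Over the 11 genes the knockout median was 10.1% of WT, and KO+STAMBP stood at 2.34 to 3.37 times WT. All 8 genes of intracellular signalling also fell, with a knockout median of 17.0% of WT, among them SLA with 2 knockout counts (ratio of WT to knockout 1922, exact 95% interval 531 to 15885), the phosphodiesterase PDE2A at 2.03% and PPP1R1B, a dopamine-regulated phosphatase inhibitor, at 25.1%.

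Cell adhesion genes kept more of their level. CNTN1, a contactin of axons, was at 57.2 and 53.1 CPM in WT, 26.2 to 29.2 in the knockout, 146 and 148 in KO+STAMBP and 156 and 142 in those labelled KO+CFLAR (log2 -0.83 ± 0.06 (SE), adjusted p = 6.4e-09), and the 5 genes had a knockout median of 41.0% of WT, with 4 lower and KIAA0319 not called. All 3 cytoskeleton genes fell (EFHD1, DNAH2 and EML1, with a median of 52.8% of WT), as did RBFOX3, the neuronal nuclear antigen NeuN, at 6.04%. The 6 noncoding RNAs fell too, and MIR124-1HG, a host transcript of the neuronal microRNA miR-124, stood at 0.226% of WT. CERS6-AS1 rests on uneven values: it was at 0 and 11.1 CPM in WT, 0 and 0 in KO1, 0 and 3.01 in KO2, 31.8 and 30.8 in KO+STAMBP and 15 and 21.9 in those labelled KO+CFLAR, runs antisense to CERS6, and takes its WT mean from 1 library.

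The 10 genes without a call in KO vs WT were SLC17A8, WNT2B, RBM20, GALNT14, NDNF, SFRP4, KIAA0319, COL3A1, CA2 and NMU. Their knockout means were 66.2% to 104% of WT. The 4 genes that rose were MSX1, NR4A3, KCNQ5 and KCNJ2. NR4A3, an orphan nuclear receptor induced by activity, was at 6.61 and 7.67 CPM in WT, 9.81 and 9.52 in KO1, 9.82 and 9.34 in KO2, 25.6 and 25.5 in KO+STAMBP and 24.8 and 21.7 in those labelled KO+CFLAR. NR4A3 rose in KO vs WT (log2 0.60 ± 0.11 (SE), adjusted p = 0.000175). KCNJ2, an inward rectifier potassium channel, was at 2.24 and 2.64 CPM in WT, 2.71 and 3.25 in KO1, 2.36 and 3.96 in KO2, 11.6 and 12.3 in KO+STAMBP and 10.9 and 10.2 in those labelled KO+CFLAR (log2 0.50 ± 0.21 (SE), adjusted p = 0.0449), and KCNQ5, given above, had log2 0.59 ± 0.21 (SE), adjusted p = 0.0187. Over 14 alternative fits, MSX1 (adjusted p 0.000425 to 0.038) and NR4A3 (3.05e-05 to 0.00597) were called in each, whereas KCNQ5 lost its call in 5 (0.00757 to 0.298) and KCNJ2 in 9 (0.0059 to 0.223). KCNQ5 had a log2 change of 0.31 without WT replicate 2, and KCNJ2 of 0.28 without KO2 replicate 2, both without a call. The scatter of knockout against KO+STAMBP levels shows where these genes lie, with a fold over WT that the selection itself requires.

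**Figure D3:**
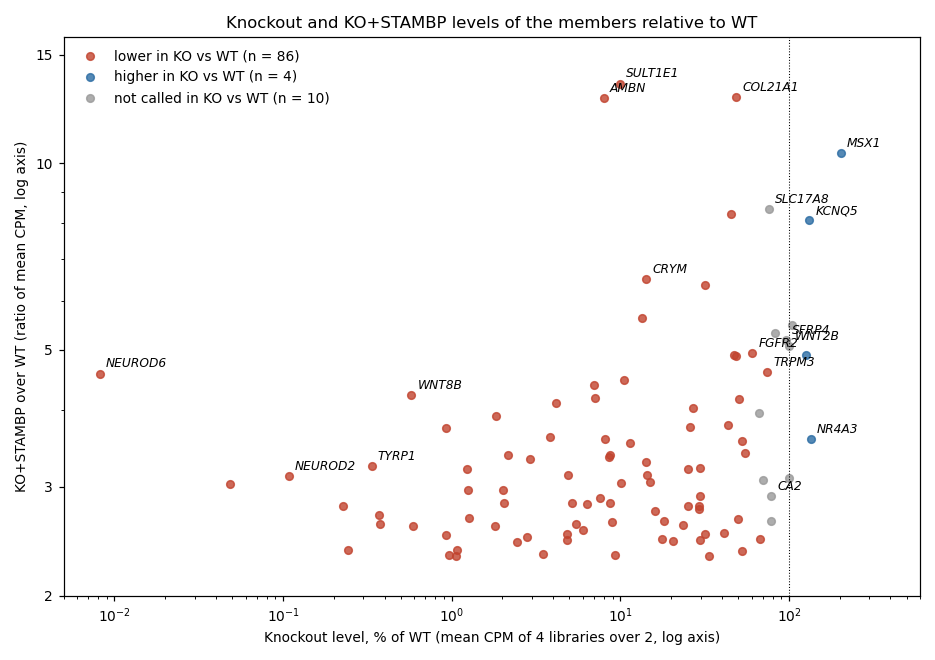
Each of the 100 genes by its knockout level as a percentage of WT (mean CPM, horizontal, log axis) and its level in KO+STAMBP over WT (ratio of mean CPM, vertical, log axis), coloured by the call in KO vs WT; the dotted line marks 100%. NEUROD6 is at the far left, SULT1E1, AMBN and COL21A1 are at the top, and MSX1, KCNQ5, KCNJ2 and NR4A3 are the 4 points that rose in the knockout.

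The groups with a construct were then compared with each other, since the rule uses the smaller of their means and does not set the sign of the difference, though it limits how far either can lie below the other. Of the 100 genes, 3 were called in KO+CFLAR vs KO+STAMBP, against 1.09% of all tested genes (0.627% higher and 0.461% lower), and 26 had an unadjusted p under 0.05. DESeq2 called 2, both lower, DCT among them, and gave no adjusted p for TYRP1 and B3GAT2. In mean CPM, 65 genes were higher in KO+STAMBP and 35 in those labelled KO+CFLAR, and 97 of 100 log2 differences lay within 0.5 (range -0.75 to 0.61). TYRP1 was lower in the libraries labelled KO+CFLAR by a log2 difference of -0.46 ± 0.08 (adjusted p = 0.0212, edgeR) and DCT by -0.33 ± 0.07 (adjusted p = 0.0378), with the library values given above not overlapping. B3GAT2, a glucuronyltransferase that makes the HNK-1 carbohydrate, was higher, with 80.5 and 79.7 CPM in KO+STAMBP and 102 and 103 in those labelled KO+CFLAR (log2 0.36 ± 0.06, adjusted p = 0.0134). AMBN had the highest log2 difference, 0.61 ± 0.16, and CERS6-AS1 the lowest, -0.75 ± 0.62, with adjusted p of 0.0978 and 0.719.

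These calls depend on single libraries: with either KO+STAMBP library or replicate 1 of the libraries labelled KO+CFLAR left out, 0 of the 100 genes were called. Without replicate 2 of the latter 2 were called, both higher and B3GAT2 among them, so that TYRP1 and DCT lost their call whichever of the 4 libraries was left out. The log2 differences moved little over the alternatives that gave an adjusted p, from -0.51 to -0.40 for TYRP1, from -0.36 to -0.30 for DCT and from 0.35 to 0.37 for B3GAT2. The other pigment genes were looked at after these values were seen. Of the 12 eye genes that are no members, TYR (log2 -0.69 ± 0.13, adjusted p = 0.0368) and PMEL (-0.40 ± 0.05, adjusted p = 0.00183) were lower in the libraries labelled KO+CFLAR than in KO+STAMBP, 10 were not called and 0 were higher. TYR was at 6.43 and 7.06 CPM in WT, 0 and 0 in KO1, 0 and 0 in KO2, 17.7 and 18.6 in KO+STAMBP and 11.4 and 10.9 in those labelled KO+CFLAR. For OCA2 the log2 difference was -0.37 ± 0.28, with adjusted p = 0.687 by edgeR.

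**Figure D4:**
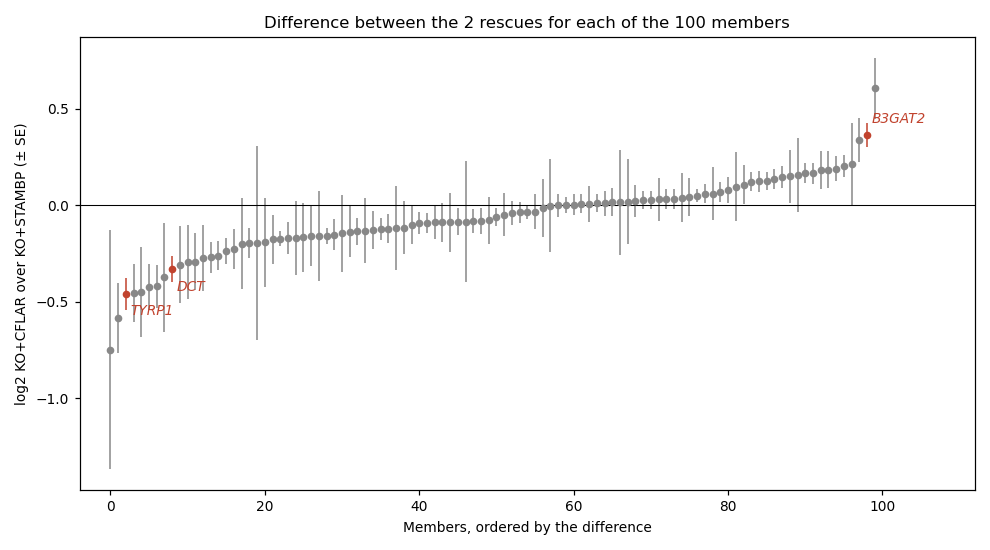
Log2 difference of the libraries labelled KO+CFLAR minus KO+STAMBP with its SE, for the 100 genes in order of the difference; the 3 called genes are in red. Most genes lie within 0.5 of 0, with TYRP1 and DCT among the lower and B3GAT2 among the higher ones.

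KO1 and KO2 were compared in the same model. None of the 100 genes was called by edgeR or DESeq2 (0.157% of all tested genes were by edgeR, 0.133% higher and 0.0237% lower in KO1), and 6 had an unadjusted p under 0.05. The log2 differences ran from -8.02 (CERS6-AS1) to 3.83 (SULT1E1), and both of these genes had 0 counts in 3 of the 4 knockout libraries. ELFN2, a synaptic adhesion protein, was at 2.45 and 2.35 CPM in KO1 and 1.21 and 1.16 in KO2 (log2 1.00 ± 0.21, adjusted p = 0.154).

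How far the selection repeats was read from single replicates. With the replicate 1 libraries alone, the rule took 100 genes, of which all 100 had a ratio above 1 in the replicate 2 libraries, with a median of 2.53 there and 2.70 where they were picked. The genes taken in replicate 2 had a ratio above 1 in replicate 1 in 99 of 100, with a median of 2.60 there and 2.65 where picked. The lowest ratios in the other replicate were 1.23 and 0.193. The medians over all 12268 rows were 0.879 and 0.872, so that most rows lay under 1. The ratio divides the smaller mean with a construct by the largest of the other means. A gene without any difference therefore also tends to lie under 1, and these medians are no measure of chance. Since paired libraries may be technical repeats, the reading in the other replicate covers the spread between these libraries alone. Both picks shared 68 genes with each other, and 87 and 78 with the 100 genes described here. With KO+STAMBP alone as the group with a construct, 81 of the 100 genes were taken again, and with the libraries labelled KO+CFLAR alone 86.

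At the edge of the rule the values change little. Ranks 96 to 100 were CACNA1E (2.33), LINC00643 (2.31), TYRP1 (2.31), GRIK2 (2.30) and GUCY1A1 (2.30). Just outside the 100 lay USP49 (2.29), TMEM132C (2.27), SLC8A1 (2.26) and SHISA2 (2.26). The ratios pass from 2.30 to 2.29 at the boundary.

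In the annotation (GENCODE release 29, GRCh38) 94 of the 100 genes were protein-coding. The genes were long: their median span was 64.6 kb, against 36.6 kb over the 12255 rows of the selection found there, and 42 of 100 spanned over 100 kb, against 22.4%. Over coding genes alone the medians were 65.3 and 37.1 kb. Chromosome 4 held 12 of the genes (3.75% of the rows of the selection lie there), chromosome 7 held 10 (4.88%) and chromosome 1 held 9 (10.01%). Pairs of the genes closer than 1000 kb were NEUROD2 and PPP1R1B (17.0 kb apart on chromosome 17), ECEL1 and EFHD1 (118 kb, chromosome 2), ADCYAP1R1 and NEUROD6 (226 kb, chromosome 7), BCL11B and EML1 (466 kb, chromosome 14), DDN and KCNH3 (539.8 kb, chromosome 12), SULT1E1 and AMBN (732 kb, chromosome 4) and KIT and NMU (855 kb, chromosome 4). An annotated gene lies on the opposite strand over 53 of the 100, and since no strand setting is given, reads of such pairs cannot be told apart. The share over the other rows of the selection was not counted, so this number is not read as a trait of these genes.

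The rest of the tissues and pathways to which these genes belong was followed in lists, leaving the 100 genes out. Of 272 such listed genes, 95 were higher and 83 lower than WT in KO+STAMBP, and 90 were higher and 83 lower in those labelled KO+CFLAR. Over all tested genes 16.4% were higher and 18.5% lower in the first comparison and 15.8% and 17.9% in the second (34.9% and 33.7% either way), with medians of 0.01 and 0.01. Both comparisons share the WT libraries. The lists were chosen with earlier results of these data known, so nothing is read from their counts against those of all genes. Each list is given with its counts in KO+STAMBP first and in those labelled KO+CFLAR second, and log2 changes likewise, with SE.

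Of 10 other cortical hem genes 6 were higher and 3 lower, then 6 and 4, with medians of 0.81 and 0.71. The WNT ligand WNT3A was at 0.788 and 0.406 CPM in WT, 5.34 and 5.47 in KO+STAMBP and 3.74 and 3.65 in those labelled KO+CFLAR (log2 3.16 ± 0.33 and 2.62 ± 0.34). BMP6 (2.32 ± 0.20 and 2.02 ± 0.21) and MSX2 (2.27 ± 0.17 and 1.97 ± 0.17) also rose, and both were higher in the knockout than in the groups with a construct, at 8.42 to 8.86 and 16 to 17.3 CPM. Summed over the list, WT had 729 to 751 CPM, the knockout 427 to 429 and the groups with a construct 629.5 to 686, so that the sum was lower than in WT although most listed genes rose.

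Of 12 choroid plexus genes 8 were higher and 3 lower, then 8 and 3 (medians 0.85 and 0.65). Their sum went the other way, with 602 to 612 CPM in WT, 204 to 216 in the knockout and 245 to 289 with a construct. Most of the WT sum came from CA12, a carbonic anhydrase, at 465 and 479 CPM in WT and 61.4 to 63.1 with a construct. The fall of CA12 alone (-2.96 ± 0.04 and -2.95 ± 0.04) set the direction of the sum. FOLR1, a folate receptor, rose (2.47 ± 0.40 and 2.33 ± 0.40), while the collagen gene COL8A1 fell (-1.98 ± 0.19 and -2.35 ± 0.19). Motile cilium genes, 20 in all, were higher in 12 and lower in 0, then 8 and 0 (medians 0.76 and 0.60), with PIFO at 1.43 ± 0.13 and 1.09 ± 0.13, CFAP126 at 1.18 ± 0.25 and 1.19 ± 0.25 and CFAP43 at 1.13 ± 0.19 and 0.95 ± 0.19. By DESeq2 the first count was 7. Of 11 Cajal-Retzius genes 4 were higher and 1 lower, then 6 and 1 (medians 0.33 and 0.28), among them BHLHE22 (1.16 ± 0.05 and 0.96 ± 0.05), the chemokine receptor CXCR4 (0.51 ± 0.06 and 0.28 ± 0.06) and LHX5 (0.80 ± 0.24 and 0.94 ± 0.24). LHX5 lost its call without WT replicate 2 (0.47 and 0.61), without replicate 2 of KO+STAMBP (0.65) and without replicate 2 of the libraries labelled KO+CFLAR (0.79). The calls of this list came to 3 and 4 without WT replicate 2, and to 3 in each comparison without replicate 2 of its group with a construct. DESeq2 called 3 and 4.

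Excitatory cortical neuron genes were higher in 7 of 14 and lower in 4, then 8 and 3 (medians 0.35 and 0.42). EOMES, a factor of intermediate progenitors, rose (0.76 ± 0.05 and 0.99 ± 0.04), as did LMO3 (0.72 ± 0.04 and 1.05 ± 0.04), and TLE4, a corepressor of deep-layer neurons, fell (-0.93 ± 0.04 and -0.84 ± 0.04), with 169 and 169 CPM in WT and 116 to 119 in the knockout. The list summed to 1603 to 1609 CPM in WT, 184 to 188 in the knockout, 2173 to 2195 in KO+STAMBP and 2311 to 2412 in those labelled KO+CFLAR. Synapse genes were higher in 18 of 25 and lower in 4 in both comparisons (medians 0.57 and 0.59), with CPLX1 (1.28 ± 0.15 and 1.13 ± 0.15) and SYN2 (1.15 ± 0.11 and 1.15 ± 0.11) among them, and they summed to 2648 to 2684 CPM in WT, 357 to 364 in the knockout and 3600.1 to 3757 in the groups with a construct.

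Most neural progenitor genes were lower, with 3 of 20 higher and 14 lower, then 3 and 12 (medians -0.49 and -0.51). FABP7, a radial glia protein, fell (-2.30 ± 0.05 and -2.22 ± 0.05), as did the glutamate transporter SLC1A3 (-1.96 ± 0.04 and -1.67 ± 0.04) and SOX9 (-1.39 ± 0.04 and -1.35 ± 0.04). This list summed to 10026 to 10131 CPM in WT, 3503 to 3577 in the knockout and 6065 to 6277 in the groups with a construct. With a construct, the excitatory neuron and synapse lists summed to more than in WT and the progenitor list to a level between knockout and WT, and the part of these markers in the levels of the 100 genes was not tested.

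Of 12 eye genes 4 were higher and 4 lower, then 2 and 5 (medians -0.25 and -0.59). Without WT replicate 1, without replicate 2 of KO+STAMBP or by DESeq2, 5 were called in KO+STAMBP. TYR (1.39 ± 0.14 and 0.70 ± 0.14) and PMEL (1.13 ± 0.05 and 0.73 ± 0.05) rose. Inhibitory neuron genes were higher in 4 and lower in 4 of 15, then 2 and 3 (medians 0.43 and -0.03), with DLX5 (1.96 ± 0.31 and 1.85 ± 0.31) and DLX6 (2.73 ± 0.37 and 2.32 ± 0.38) higher and NPY (-2.74 ± 0.28 and -2.66 ± 0.27) lower. DLX5 was higher still in the knockout, at 4.34 to 5.83 CPM. The inhibitory neuron list summed to 295 to 297 CPM in WT, 55.9 to 62.2 in the knockout and 161 to 182 with a construct. Diencephalon and midbrain genes were higher in 1 and lower in 7 of 15, then 1 and 6 (medians -0.41 and -0.68), with GBX2 (-4.22 ± 0.44 and -5.02 ± 0.47), TH (-3.63 ± 0.18 and -4.20 ± 0.19) and EN2 (-2.75 ± 0.43 and -2.28 ± 0.40) lower. Of 2 hindbrain genes tested, 0 were higher and 1 was lower in both.

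Astrocyte and outer radial glia genes were higher in 4 and lower in 6 of 14 in both comparisons (medians 0.01 and 0.11), with CRYAB (2.93 ± 0.21 and 2.71 ± 0.22) higher and S100B (-4.03 ± 0.20 and -3.88 ± 0.20) and HOPX (-3.01 ± 0.10 and -2.82 ± 0.10) lower. Oligodendrocyte genes were higher in 0 and lower in 3 of 6 in both (medians -0.64 and -1.26), with OLIG1 (-3.47 ± 0.45 and -4.18 ± 0.48) and CSPG4 (-0.91 ± 0.14 and -1.20 ± 0.14) lower. Neural crest and sensory neuron genes were higher in 1 and lower in 0 of 9, then 1 and 1 (medians -0.19 and -0.32), the higher gene being ELAVL4 (1.03 ± 0.05 and 0.95 ± 0.05), which neurons in general express. Mesenchyme genes were higher in 2 and lower in 5 of 13, then 2 and 6 (medians -0.37 and -0.35), with the matrix gene DCN (-3.11 ± 0.20 and -2.95 ± 0.20), the factor PRRX1 (-3.80 ± 0.60 and -2.70 ± 0.52) and POSTN (-1.33 ± 0.31 and -1.16 ± 0.30) lower, and 5 genes of the list in all were called in the libraries labelled KO+CFLAR without WT replicate 2 or by DESeq2. POSTN lost its call there without WT replicate 1 and without replicate 1 of those libraries. With a construct, mesenchyme genes summed to 148 to 180.2 CPM.

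Muscle genes were higher in 2 and lower in 0 of 8, then 3 and 0 (medians 0.75 and 0.47), with TNNT1 (1.35 ± 0.29 and 1.30 ± 0.28) and TNNC1 higher than WT. Both were highest in the knockout, TNNT1 at 4.11 to 4.96 CPM. TNNC1 was at 0.0606 and 0.0508 CPM in WT, 0.727 to 1.05 in the knockout, 0.44 and 0.285 in KO+STAMBP and 0.345 and 0.48 in those labelled KO+CFLAR, and lost its call with either WT library left out. The calls of this list then came to 1 in each comparison, and likewise without replicate 1 of KO+STAMBP or replicate 2 of the libraries labelled KO+CFLAR, and by DESeq2. Endothelium and blood genes were higher in 2 and lower in 4 of 9 in both (medians -0.31 and -0.64). Of these, CSF1R, a receptor of macrophages, was higher, at 0.0606 and 0.102 CPM in WT, 13.6 to 15 in the knockout, 0.936 and 1.2 in KO+STAMBP and 0.935 and 1.1 in those labelled KO+CFLAR, so that it stood far below the knockout with a construct. PECAM1, an endothelial adhesion protein, was lower, at 0.424 and 0.864, 0.055 and 0 and 0.197 and 0 CPM. CDH5, which defines endothelium, was at 0.121 and 0.305 CPM in WT and had 0 counts in all 4 libraries with a construct. Both calls of CDH5 were lost without WT replicate 2 or without either library of the group with a construct, and that of PECAM1 in the libraries labelled KO+CFLAR without WT replicate 2 or replicate 2 of those libraries. Without WT replicate 2 the list had 3 calls there.

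WNT signalling genes were higher in 6 and lower in 11 of 28, then 5 and 12 (medians 0.07 and -0.22), with the receptors FZD10 (-2.16 ± 0.26 and -2.51 ± 0.26) and FZD5 (-1.19 ± 0.15 and -1.37 ± 0.15) and the inhibitor WIF1 (-1.72 ± 0.37 and -1.24 ± 0.35) lower. In the libraries labelled KO+CFLAR, WIF1 lost its call without WT replicate 1 (-1.09) and without either of those libraries. Retinoid genes were higher in 5 and lower in 4 of 15, then 4 and 4 (medians 0.00 and -0.21). The retinol dehydrogenase RDH10 rose (1.34 ± 0.05 and 0.84 ± 0.05), as did DHRS3 (3.67 ± 0.26 and 4.18 ± 0.24), which was higher still in the knockout at 17.2 to 21.2 CPM, and CRABP1 fell (-0.92 ± 0.07 and -1.10 ± 0.07). Neuropeptide genes were higher in 6 and lower in 6 of 16, then 7 and 6 (medians 0.41 and 0.41), with PENK (2.84 ± 0.35 and 3.22 ± 0.34) higher and CRH (-2.88 ± 0.10 and -3.15 ± 0.10) lower, and a sum of 694 to 699 CPM in WT, 95.8 to 102 in the knockout and 321 to 331 with a construct. The plot of all lists sets these counts side by side.

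**Figure D5:**
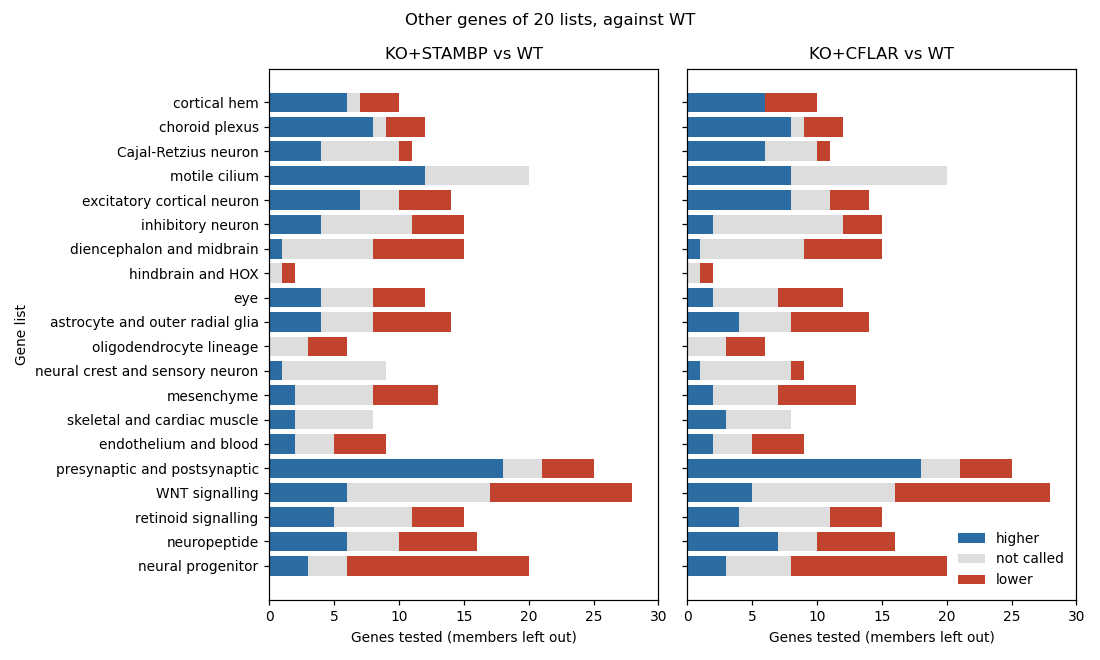
Number of tested genes of each of 20 lists, members left out, that were higher than WT (blue), not called (grey) or lower (red) in KO+STAMBP (left) and in the libraries labelled KO+CFLAR (right). Motile cilium genes have 0 in red and synapse genes 18 in blue in both panels, and neural progenitor genes have 14 and 12 in red.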

How the data were processed

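RNA of 10 libraries of H1-derived NPCs had been sequenced after Trizol extraction and Illumina TruSeq preparation, per the labels' protocols. The deposited table holds whole-number counts per gene, made by the authors. Per the submitters' processing notes, fastp 0.20.0, RSEM 1.2.4, DESeq2 and the builds hg38 and GRCh38 were used. The annotation release, strand setting and any rounding are not given in the sources used here. Replicates had not been pooled. Gene positions came from GENCODE release 29, where all 100 genes were found.

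CPM was computed from column totals. The genes and lists were chosen with earlier results of these data known, roles were assigned after the genes were seen, and further genes are named as examples after their values were seen. By rule, the text names the 20 genes with the highest ratio, genes on lists, the largest called changes each way, ranks 96 to 105, and up to 3 other genes per list called the same way in both groups with a construct. A few genes that this rule names are not reported here. Library pairs of a group differed beyond counting noise (chi-square per gene 1.93 to 3.39).

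Tests used edgeR 4.0.16 (R 4.3.3) quasi-likelihood fits with TMM scaling over all 5 groups, on the 21063 genes that passed its expression filter (all 100 genes did), with Benjamini-Hochberg adjustment over all of them and a threshold of 0.05. Log2 changes carry an SE from the test statistic. The step was also run on simulated counts, in which all genes shared the same spread and few were changed. That setting is simpler than these data, so nothing is concluded from it here. Alternatives were DESeq2 1.42.0, other scalings and filters, a replicate block, fits of only the groups compared, each library left out, and, added later, all libraries labelled KO+CFLAR left out. Intervals of count ratios are exact and, like the limit for a count of 0, cover counting error only.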

Additional observations from a re-analysis of the deposited data

Results flagged for a closer look

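TYRP1, DCT and B3GAT2 stood out because the groups with a construct, which the selection treats alike, differed in them by edgeR's test. TYRP1 had a log2 difference of -0.46 and DCT of -0.33, lower in the libraries labelled KO+CFLAR, and B3GAT2 of 0.36, higher there. Among the rows without a gene symbol, which the selection leaves out, 4 of 632 with sufficient level had a ratio at or above that of the 100th gene (4.13, 3.74, 2.74 and 2.66).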

How the results depend on the processing

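In KO vs WT, 83 to 92 of the 100 genes were called over all 14 alternatives. Between the groups with a construct, where the reported count is 3, the test called 9 without a filter on low counts, 9 with only the groups compared, and 0 to 2 with 1 library left out. Over these alternatives the adjusted p of TYRP1 ran from 5.34e-06 to 0.268, of DCT from 4.89e-07 to 0.291 and of B3GAT2 from 2.87e-06 to 0.182. KO1 against KO2 gave 2 calls without the filter and 0 with any 1 library left out. The cause was not tested. With replicate number as a replicate block, 5 genes were called between the groups with a construct (2 higher, 3 lower) and 90 in KO vs WT. Over all tested genes, the deviations of same-numbered libraries were hardly correlated (-0.02 to 0.07 over 10 pairs of groups). Noise of single genes enters these correlations, so whether the numbers pair libraries cannot be told from them.

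With other offsets, minimum levels or TMM scaling, the selection shared 83 to 94 genes with the 100, and 88 to 100 with 1 library left out, the lowest without WT replicate 2. Of 119 results for single genes, 14 lost a call under at least 1 alternative and 0 reversed. Listed genes were called in 153 to 161 cases with 1 library left out. With 2 libraries a group, 5 residual degrees of freedom limit every test, and knockout values of a few counts limit fold sizes.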
